A study of Mus musculus with 18 samples.

Results

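The 6 libraries compared here were 3 from cells transfected with a mimic of the microRNA miR-200a-3p and 3 from cells transfected with the mimic's negative control. They were chosen by their labels and are 6 of the 18 RNA-seq libraries of a study of miR-200a-3p in mouse HL-1 cells, an immortalised line derived from atrial cardiomyocytes. The mimic libraries carry the genotype "miR-200a-3p mimics overexpressed" and the control libraries the genotype "negative control"; both groups were treated with high glucose. Transfection used HiPerFect reagent, and cells were harvested 48 h later, per the labels' protocols. No library in this comparison came from untransfected cells, so every difference below is between 2 transfected groups in high glucose. The other 12 libraries were vehicle-treated cells, cells in high glucose alone, and cells in high glucose with a miR-200a-3p inhibitor or its own negative control. Nothing in the labels says whether the 3 libraries of each group stem from independent cultures, so every p-value reflects library-to-library spread that may be technical. The sources used here give neither the dose and duration of high glucose nor the amount of mimic.

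MicroRNAs are short RNAs that guide an Argonaute protein to messenger RNAs, mostly through pairing of the seed, the bases near the 5′ end, to a matching stretch of the 3′ untranslated region (3′ UTR). A paired transcript is translated less and is usually degraded faster, so transfected mimics are commonly followed through the messenger RNAs that hold seed matches. The miR-200 family is best known for holding cells in an epithelial state by repressing Zeb1 and Zeb2, which encode repressors of E-cadherin, and miR-200a has been tied to the NRF2 antioxidant response through Keap1, which encodes the adaptor that targets NRF2 for degradation. In the heart, family members have been studied in fibrosis, hypertrophy and oxidative stress.

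The mature sequences below are shown because the seed, in capitals (bases 2 to 8), defines the sites counted further on. They were taken from RefSeq (build GRCm38.p6). The first pair shares 1 seed, the next 3 share another that differs from it, and the last is the opposite arm of the miR-200a hairpin.
mmu-miR-200a-3p: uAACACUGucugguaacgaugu
mmu-miR-141-3p: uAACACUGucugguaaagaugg
mmu-miR-200b-3p: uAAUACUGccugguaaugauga
mmu-miR-200c-3p: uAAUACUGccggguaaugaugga
mmu-miR-429-3p: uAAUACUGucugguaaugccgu
mmu-miR-200a-5p: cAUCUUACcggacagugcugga

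The mimic libraries held 34836385 to 36761416 counted reads and the control libraries 34743485 to 37928790, so a gene with 0 reads could stand at up to 0.0791 to 0.0863 CPM (read counts scaled to the library total; the level of 3 reads, counting error only). Of 29112 genes in the count table, 15074 passed the filter on low counts and were tested. The cardiomyocyte identity given by the labels was checked against its markers in the 6 libraries. Nppa, which encodes the atrial natriuretic peptide, and Pln, the phospholamban gene, had 0 reads in all 6. Myh6, the main adult myosin heavy chain of rodent heart, had 18 reads over the 6 libraries, Actc1, the cardiac actin, had 1, and the ventricular light chain Myl2 had 3. Tnnt2, encoding cardiac troponin T, was present at 14.2 to 22.9 CPM, the cardiac transcription factor Gata4 at 9.3 to 13.1 CPM and the connexin Gja1 at 82.5 to 95.4 CPM, unscaled. The libraries are therefore named by their labels, without a statement on the cell type. Summed fibroblast markers stood at 6289, 6575 and 6490 CPM in the mimic libraries and at 7427 to 7843 CPM in the controls, with 0 of 13 measured members higher and 4 lower both with and without mimic replicate 2. Summed epithelial markers stood at 103 to 119 CPM against 155 to 163 CPM, with 0 of 9 higher and 2 lower. Summed endothelial, lymphocyte and skeletal muscle markers had overlapping ranges between the groups, at 6.38 to 7.21 against 5.95 to 6.85 CPM, 2.23 to 2.44 against 2.2 to 3.03 CPM and 135 to 138 against 133 to 147 CPM. Of 6 measured endothelial markers 0 were higher and 1 lower both ways, and of 14 skeletal muscle markers 2 were higher and 1 lower. The 1 measured lymphocyte marker was not called. Summed cardiomyocyte markers, Gja1 among them, stood at 138 to 143 CPM against 126 to 133 CPM, with 1 of 14 higher and 3 lower. Over all tested genes 11.2% were higher and 13.7% lower both ways. In a fit corrected for GC content and length, described below, 2 of the 4 fibroblast, 2 epithelial and 0 endothelial markers were still lower. The fibroblast median log2 fold change was -0.18 (-0.16 without replicate 2) before that correction and -0.07 (-0.08) after it. In bulk RNA, fewer cells of a type and less RNA per cell cannot be told apart, and the part of these markers in the results below was not tested.

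Mimic replicate 2 stood apart from the other 17 libraries of the study. It carried 23 of 24 macrophage markers at levels above those of all other libraries, Cd14 being the exception. Lyz2, which encodes macrophage lysozyme, stood at 857 CPM in it and at 14.4 and 14.3 CPM in mimic replicates 1 and 3. Csf1r, the receptor for macrophage colony-stimulating factor, stood at 52.2 CPM against 1.12 and 0.877 CPM. Ptprc, the pan-leukocyte marker CD45, stood at 30.5 CPM against 1.25 and 1.12 CPM. Adgre1, which encodes the macrophage antigen F4/80, stood at 25.2 CPM against 0.435 and 0.493 CPM. The summed markers reached 1918 CPM in replicate 2 and were 64.3 and 64.7 CPM in the other mimic libraries, below the control range of 73.5 to 78.6 CPM (all unscaled). In all, 111 tested genes (0.736% of 15074) were at least 4-fold above the highest of the other 17 libraries and at 5 CPM or more in this library; their levels summed to 5612 CPM in replicate 2 and to 184 and 173 CPM in replicates 1 and 3. How the transcripts entered the library was not tested.

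Many of the large differences rested on this library. With all 6 libraries, edgeR's quasi-likelihood test called 341 genes at least 2-fold higher with the mimic at a Benjamini-Hochberg adjusted p under 0.05. Of these, 54 were called higher also without replicate 2, at any size of change, and 39 were at least 2-fold higher both ways. Of 35 genes called at least 2-fold lower, 26 were called lower also without it, and 23 were at least 2-fold lower both ways. Among 22 measured macrophage markers, 20 were called higher with all libraries and 0 were called both ways; their median log2 fold change went from 3.77 to -0.12. Genes outside that list went the same way. Il10ra, an interleukin-10 receptor chain, Gmfg, Rgs1, a regulator of G protein signalling, Saa3, an acute phase protein, Lilr4b, Cyba, an NADPH oxidase subunit, the protease gene Ctsc and Pla2g7 were called higher with all libraries and lost the call without replicate 2. For Cd37, Cd5l, Ccl6, Thbs1 and Arg1, and for the macrophage list members Cybb and Lyz2, the call turned from higher to lower. Lyz2 went from a log2 fold change of 4.06 (adjusted p = 0.00371) to -0.26 (adjusted p = 0.0394). The level of 3 more genes, named by rule from their lists, rested on this library. They were Itgam and Mpeg1 of the macrophage list and H2-D1 of the MHC class I list. The integrin gene Itgam stood at 2.02, 115 and 1.68 CPM in mimic replicates 1, 2 and 3 and at 1.67, 2.07 and 2.01 CPM in control replicates 1, 2 and 3 (TMM-scaled, as are all single-library levels from here on). Mpeg1, a macrophage pore-forming protein, stood at 2.99, 154 and 3.47 CPM against 3.19, 3.15 and 3.06 CPM. H2-D1, a classical MHC class I gene, stood at 26.7, 175 and 25.5 CPM against 28.2, 27.4 and 28.8 CPM. In each, replicate 2 alone was high and the other mimic libraries lay among or near the controls.

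**Figure D1:**
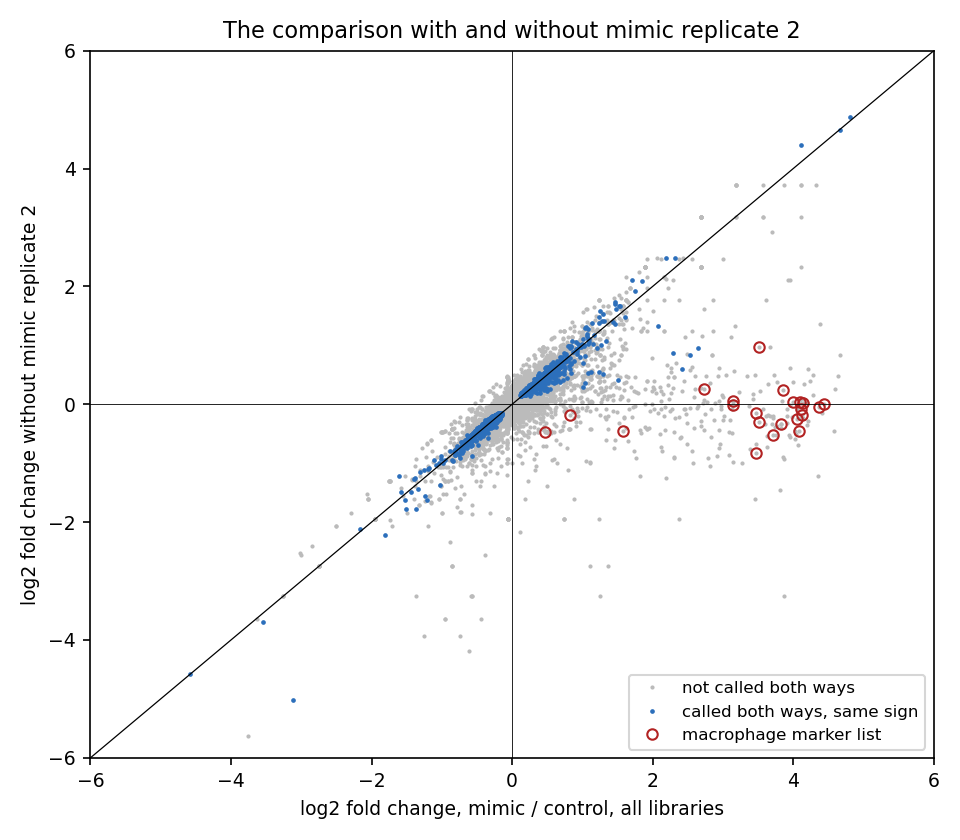
Log2 fold change of every tested gene, mimic over mimic control, with all libraries (x axis) and without mimic replicate 2 (y axis); blue points passed the test both ways with the same sign, red rings are the macrophage markers, and the line marks equal values. Of the 22 rings, 20 were called higher with all libraries and 0 passed both ways, while most blue points lie near the line.

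Every result below therefore rests on genes called at an adjusted p under 0.05 both with all libraries and without mimic replicate 2, in the same direction; such genes are described as having risen or fallen. With all libraries 5087 of 15074 genes (33.7%) were called, 2375 higher (15.8%) and 2712 lower (18%); without replicate 2 the number was 4004 (26.6%), with 1846 higher (12.2%) and 2158 lower (14.3%). Both ways, 3754 genes (24.9%) passed, of which 1688 rose (11.2%) and 2066 fell (13.7%). Of the genes called, 46.7% were higher with all libraries, 46.1% without replicate 2 and 45.0% both ways; with limma on log2(FPKM + 1) these shares were 61.3%, 60.2% and 60.9%, and with log2(FPKM + 0.1) 63.5%, 62.9% and 63.6%. With mimic replicate 1 left out of both fits 921 rose and 1312 fell, and with mimic replicate 3 left out of both 708 and 1181; the fit without replicate 2 then held a single mimic library, assumed to vary like the other groups. Most of these changes were small. The median size was 0.30 on the log2 scale for genes that rose and 0.29 for genes that fell, and 129 and 87 genes changed at least 1.5-fold in both fits. The 3 mimic libraries lay wholly above the 3 controls for 1655 of the genes that rose and wholly below for 2052 of those that fell; over all tested genes the groups did not overlap for 6756 (44.8%). The genes that rose had longer 3′ UTRs (median 1945 bases) than all tested genes (1035 bases), and those that fell had a median of 993 bases.

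The direction of change followed the base composition of the transcript in each mimic library. Genes were divided into 5 equal bins by the GC content of their annotated transcript, from 30.8–44.4% in the lowest bin to 55.6–80.6% in the highest. The median log2 fold change went from 0.22 in the lowest bin through 0.09, -0.01 and -0.11 to -0.17 in the highest, and without replicate 2 from 0.21 to -0.16. Each mimic library showed it: against the control mean, replicates 1, 2 and 3 had medians of 0.17, 0.16 and 0.18 in the lowest bin and -0.13, -0.18 and -0.14 in the highest. The control libraries set against one another spanned -0.02 to 0.03, and the inhibitor group against its own control went from 0.02 to -0.02. Of genes in the lowest bin, 29.9% rose and 0.532% fell; in the highest, 0.899% rose and 29.2% fell. A fit with each library's trend on GC content and length removed left medians between -0.01 and 0.02 in all bins. It kept 1928 of the genes that passed both ways (12.8% of those tested), 790 that rose (5.24%) and 1138 that fell (7.55%), and counts of genes that also passed in that corrected fit, both ways and in the same direction, are given in brackets beside each list below ("corrected"). For lists whose balance differed with limma on log2(FPKM + 1), those counts stand beside them as well. Some genes belong to more than 1 list, so the counts of different lists are not independent. Col4a2, for example, is in the basement membrane and collagen lists, and Gdf15 and Sesn2 are in the p53 and ATF4 lists. The part of base composition in any single result was not tested. Genes of the X chromosome had a median of 0.11 over 498 genes (0.13 without replicate 2), with 91 that rose and 44 that fell, against a median of 0.00 over 14576 other genes; in the corrected fit the X-linked median was 0.00.

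**Figure D2:**
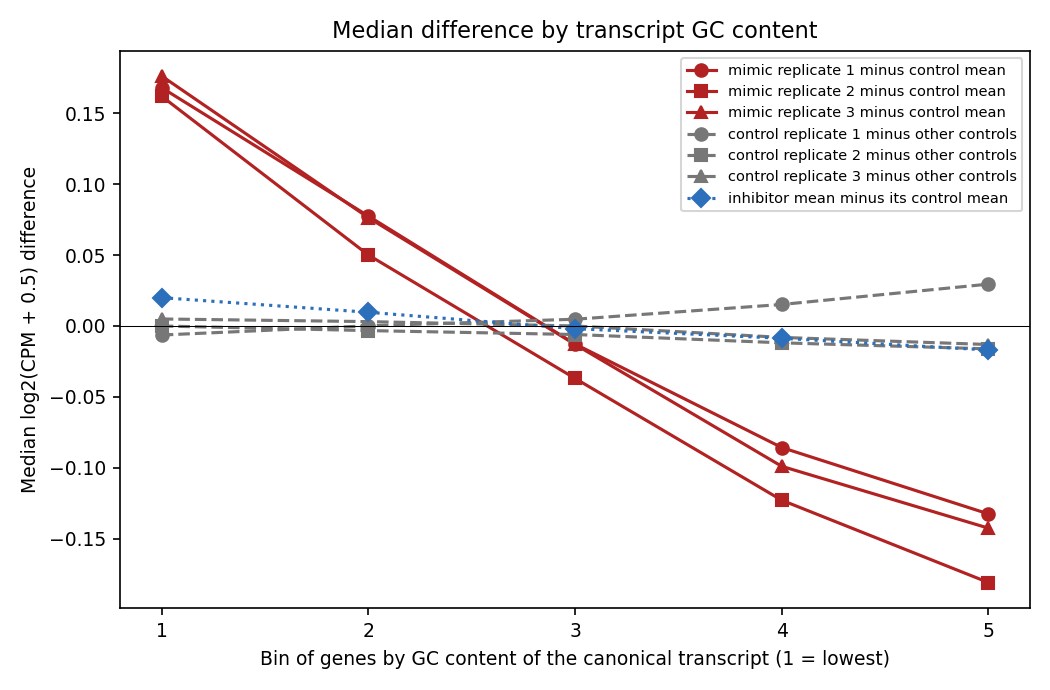
Median difference in log2(CPM + 0.5) for genes in 5 bins of transcript GC content (x axis, lowest first) for each mimic library minus the control mean, each control library minus the other controls, and the inhibitor mean minus its own control mean. The 3 mimic libraries slope from 0.16–0.18 to between -0.13 and -0.18, and the other lines stay within 0.03 of 0.

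Most measured genes of the basement membrane, the laminin and collagen sheet on which cells rest, fell. Of 20 measured members, 13 fell and 1 rose, with 11 and 1 in the corrected fit as well; the median log2 fold change was -0.33 (-0.31 without replicate 2, -0.22 corrected), against 0.00 over all genes. Hspg2 encodes perlecan, a heparan sulphate proteoglycan of this sheet. It stood at 255, 261 and 279 CPM in mimic replicates 1, 2 and 3 and at 443, 418 and 424 CPM in control replicates 1, 2 and 3. All 3 mimic libraries lay below all controls, and the log2 fold change was -0.69 ± 0.0631 (SE, adjusted p = 7.77e-07), -0.68 without replicate 2 and -0.45 in the corrected fit. Values in brackets from here on are log2 fold changes with all libraries, with ± SE where given, and amounts by which a gene rose or fell are on the log2 scale. The laminin α3 chain gene Lama3 stood at 3.85, 4.46 and 4.19 CPM against 7.13, 7.38 and 7.45 CPM, and its partner Lamb3, encoding the β3 chain of laminin-332, at 7.81, 7.05 and 7.96 CPM against 12.6, 13.3 and 14 CPM. The groups were again apart, with log2 fold changes of -0.81 for Lama3 and -0.80 for Lamb3 (corrected -0.72 and -0.68). Lama5, encoding the laminin α5 chain, stood at 165, 158 and 171 CPM against 253, 245 and 247 CPM, a log2 fold change of -0.59 ± 0.0534 (corrected -0.36). Tinagl1, encoding a secreted matrix protein, fell by 0.86 on the log2 scale (adjusted p = 4.2e-05). Col4a2, encoding a network-forming type IV collagen chain, fell by 0.54 (corrected -0.35). Lamb2, Lamc1, Lama4 and Lamb1 fell by 0.44, 0.31, 0.30 and 0.24 (corrected -0.26, -0.18, -0.27 and -0.16) and Col18a1 by 0.45 (corrected -0.27), while Nid1, encoding the linker nidogen-1, rose (0.17 ± 0.0524, adjusted p = 0.0195).

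Many genes for actin-crosslinking and Z-disc proteins, which anchor thin filaments in muscle and stress fibres elsewhere, fell as well. Of 26 measured sarcomere, Z-disc and costamere genes 11 fell and 1 rose (10 and 1 also corrected). Their median was -0.21 (-0.17 without replicate 2). Flnc, encoding the muscle filamin, was the most abundant of those named by size. It stood at 1284, 1259 and 1336 CPM in mimic replicates 1, 2 and 3 and at 2337, 2206 and 2263 CPM in control replicates 1, 2 and 3. The log2 fold change was -0.81 ± 0.0546 (adjusted p = 7.07e-08), -0.79 ± 0.0638 without replicate 2 and -0.60 corrected. Nrap, an actin-anchoring protein of the forming myofibril, stood at 6.04, 6.79 and 6.54 CPM against 11.1, 11.6 and 10.8 CPM (log2 fold change -0.79 ± 0.0776). Xirp1, encoding a Xin repeat protein that binds actin, was low at 1.4, 1.22 and 1.39 CPM against 2.45, 2.8 and 3.31 CPM and fell by 1.09 ± 0.162. All mimic libraries were below all controls for each of these genes. Actn1, encoding α-actinin-1, stood at 945, 931 and 983 CPM against 1369, 1319 and 1347 CPM (-0.50 ± 0.0468). Non-muscle myosin IIA, encoded by Myh9, was abundant, at 11092, 11412 and 11489 CPM against 15423, 15413 and 15490.2 CPM. It fell by 0.45 ± 0.0599, and by 0.26 in the corrected fit. Acta2, Bag3, Pdlim7 and Vcl (vinculin) fell by 0.44, 0.41, 0.39 and 0.36 (corrected -0.50, -0.26, -0.22 and -0.36), and Myom2, an M-band protein gene, rose by 0.21.

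Integrin and focal adhesion genes link this actin network to the matrix. Of 22 measured, 10 fell and 3 rose (6 and 2 corrected), with a median of -0.19 that was -0.02 in the corrected fit. Talin-1, the protein that couples integrins to actin, is encoded by Tln1, which stood at 1162, 1214 and 1245 CPM against 1813, 1843 and 1786 CPM (-0.59 ± 0.0636, corrected -0.39). Itga7, the α7 laminin receptor of muscle, stood at 212, 193 and 199.5 CPM against 313, 290.5 and 315 CPM (-0.60 ± 0.0505). The groups did not overlap for any of these. Flna fell by 0.46 and the fibronectin receptor chain Itga5 by 0.41 (corrected -0.25), while Itgav and Itgb3, which pair to form the vitronectin receptor, rose by 0.38 and 0.34. Fat1, encoding an atypical cadherin, stood at 30.4, 33.2 and 33.2 CPM against 53.8, 52.9 and 50.8 CPM (-0.70 ± 0.0578, adjusted p = 4.03e-07). Jup, encoding plakoglobin of desmosomes and adherens junctions, stood at 3.14, 3.26 and 3.18 CPM against 5.61, 5.6 and 5.53 CPM (-0.80 ± 0.117), and Krt19, a simple-epithelial keratin, at 106, 87.4 and 98.2 CPM against 158, 151 and 158 CPM (-0.68 ± 0.0805). Of 18 measured keratin and desmosome genes 4 fell and 0 rose (2 and 0 corrected). The adhesion receptor gene Adgrg1 and Eps8l2, an actin regulator, fell by 0.82 and 0.72.

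Collagen genes fell in larger number before the correction than after it. Of 33 measured collagen and collagen-modification genes 17 fell and 1 rose (8 and 2 with log2(FPKM + 1)), but 6 and 0 did so also in the corrected fit, and the median went from -0.19 to -0.05. Loxl4, a collagen crosslinking oxidase, stood at 8.98, 8.75 and 9.26 CPM against 12.5, 12.8 and 13.6 CPM (-0.53 ± 0.0633, corrected -0.45), and Col5a1 fell by 0.42 (corrected -0.22). Col1a1, the α1 chain of type I collagen, fell by 0.25, yet its corrected log2 fold change was -0.07 (adjusted p = 0.38). Fn1, fibronectin, stood at 4977, 5145 and 5264 CPM against 6755, 6417 and 6570.4 CPM and fell by 0.36 ± 0.0534 (corrected -0.23).

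**Figure D3:**
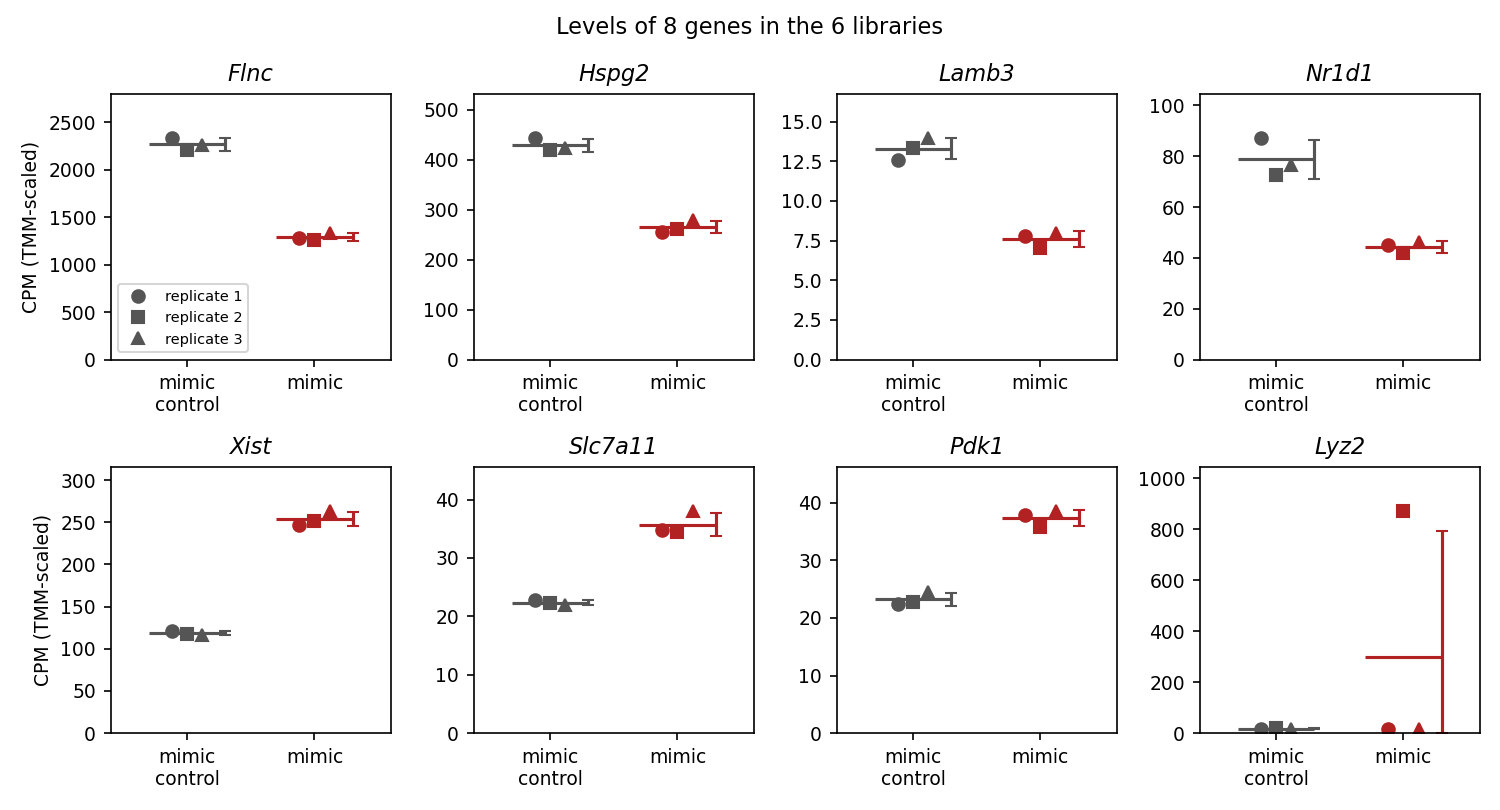
TMM-scaled CPM of 8 genes in the 3 mimic control and 3 mimic libraries (marker shape gives the replicate; horizontal line, mean; bar, SD, ended at 0 for Lyz2). Flnc, Hspg2, Lamb3 and Nr1d1 lie lower and Xist, Slc7a11 and Pdk1 higher in every mimic library than in any control, whereas Lyz2 is high in mimic replicate 2 alone (870 CPM).

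Among genes of DNA replication, nearly all of those that changed fell. Of 49 measured S-phase genes 20 fell and 2 rose (15 and 2 corrected). With log2(FPKM + 1) 15 fell and 3 rose, and with log2(FPKM + 0.1) 13 and 3. With all libraries the median was -0.20, the same in the corrected fit. Without replicate 2 it was -0.16 (corrected -0.17). Members of the MCM helicase, which unwinds DNA at replication forks, were among the genes that fell. Mcm5 stood at 106, 98.8 and 101 CPM against 142, 142 and 146 CPM (-0.49 ± 0.0488, adjusted p = 1.57e-06). Mcm3 stood at 235, 219 and 234 CPM against 305, 314 and 296 CPM (-0.41 ± 0.0548) and Mcm2 at 274, 259.8 and 277 CPM against 362, 358 and 361 CPM (-0.42 ± 0.049, corrected -0.27). The mimic libraries lay below the controls in every case. Mcm10, an origin-firing factor, and Pole, the leading-strand polymerase, fell by 0.45 each. Ccne2, encoding cyclin E2, went the other way, at 10.7, 11.1 and 12.1 CPM against 6.82, 8.71 and 8.56 CPM (0.49 ± 0.0979). Of 35 mitotic genes 4 fell and 4 rose (3 and 1 corrected, 4 and 6 with log2(FPKM + 1)). Cdc20, an activator of the anaphase-promoting complex, and the spindle proteins Aurka and Tpx2 fell by 0.41, 0.34 and 0.29 (corrected -0.27, -0.28 and -0.35). Cenpf and Bub1 rose by 0.27 and 0.24, Bub1 without passing both ways in the corrected fit.

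The p53 target list held 9 of 26 genes that fell and 2 that rose (8 and 2 corrected). Its median was -0.01 (0.01 without replicate 2). Cdkn1a, encoding the cell cycle inhibitor p21, stood at 136, 121 and 124 CPM against 199.8, 188 and 194 CPM. No mimic library reached the lowest control, and the log2 fold change was -0.61 ± 0.0503 (adjusted p = 4.03e-07; corrected -0.50). Trp53, the p53 gene itself, stood at 40.9, 35.2 and 37.9 CPM against 51.9, 48.1 and 53.6 CPM (-0.43 ± 0.0652). Gdf15, a stress-induced cytokine gene, and Zmat3, an RNA-binding p53 target, fell by 0.47 and 0.40 (corrected -0.31 and -0.41). Rrm2b, the p53-inducible ribonucleotide reductase subunit, rose, at 33.2, 31.2 and 36.7 CPM against 23, 21.8 and 22.4 CPM (0.59 ± 0.0755, corrected 0.33), as did Gadd45a (0.20 ± 0.0552).

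Of the 43 gene lists, that of antioxidant genes had the most members that rose. Of 34 measured NRF2, glutathione and iron-handling genes 14 rose and 5 fell (14 and 3 with log2(FPKM + 1)), and 12 and 3 did so also in the corrected fit; the median was 0.12 (corrected 0.14). Slc7a11, the cystine importer that feeds glutathione synthesis, stood at 34.8, 34.4 and 38 CPM in mimic replicates 1, 2 and 3 and at 22.8, 22.2 and 21.9 CPM in control replicates 1, 2 and 3. The groups were well apart (0.68 ± 0.0639, adjusted p = 9.51e-07; 0.71 without replicate 2; corrected 0.48). Srxn1, sulfiredoxin, which reactivates oxidised peroxiredoxins, stood at 98.1, 99.3 and 99 CPM against 68.5, 66.4 and 68.5 CPM (0.54 ± 0.0376, adjusted p = 7.07e-08, corrected 0.63). Gclm, the modifier subunit of the enzyme limiting glutathione synthesis, stood at 17.5, 19.8 and 17.6 CPM against 11.8, 12.3 and 12.1 CPM (0.61 ± 0.0636). Nqo1, a quinone reductase and a standard NRF2 readout, stood at 12.7, 12.3 and 12 CPM against 8.57, 8.96 and 7.36 CPM (0.57 ± 0.12). Gsta4, a glutathione transferase for lipid aldehydes, was abundant at 1007, 904 and 986 CPM against 684, 748 and 769 CPM (0.40 ± 0.0617). Each had all mimic libraries above all controls. Glutathione reductase (Gsr), the catalytic subunit Gclc, catalase (Cat), malic enzyme (Me1) and thioredoxin reductase (Txnrd1) rose by 0.42, 0.31, 0.27, 0.23 (corrected 0.15) and 0.23. Hmox1, haem oxygenase, chosen after its values were seen, did not pass (0.11 ± 0.0618, adjusted p = 0.184). Keap1, whose product restrains NRF2, stood at 33.7, 30.7 and 31.9 CPM against 33, 33.4 and 32.4 CPM, with overlapping groups (-0.04 ± 0.068, adjusted p = 0.711). Among the members that fell were Slc3a2, the heavy chain that carries the Slc7a11 transporter to the membrane, at 1316, 1226 and 1299.8 CPM against 1682, 1799.9 and 1739 CPM (-0.44 ± 0.0624), and G6pdx, the entry enzyme of the pentose phosphate pathway (-0.33 ± 0.0581).

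Among amino acid and protein-folding stress genes, nearly all of those that changed fell. Of 29 ATF4-linked genes for stress and amino acid supply 13 fell and 1, Slc7a11, rose (10 and 1 corrected). Their median was -0.17 (-0.12 without replicate 2). The glutamine transporter Slc1a5, the cationic transporter Slc7a1, the stress sensor Sesn2 and the asparagine synthetase Asns fell by 0.45, 0.37, 0.41 and 0.25 (corrected -0.29, -0.30, -0.23 and -0.32). In the unfolded protein response list 8 of 26 fell and 0 rose (5 and 0 corrected, 5 and 0 with log2(FPKM + 1)). The corrected fit taken alone called 13 lower and 0 higher, and the median went from -0.13 to -0.18. Calr, the calcium-binding chaperone calreticulin, stood at 3221, 3201 and 3399 CPM against 4074, 4593 and 4089 CPM (-0.38 ± 0.073), and Hyou1, Manf and the stress sensor Ern1 fell by 0.35, 0.32 and 0.30. The groups were apart for each of these genes. Among 22 heat shock genes 6 fell and 3 rose with TMM-scaled counts, but 3 fell and 7 rose with log2(FPKM + 1), so no direction is given; in the corrected fit 4 and 0 of these passed.

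Among genes for ribosome assembly, most of those that changed fell. Of 36 measured ribosome assembly and RNA polymerase I genes 15 fell and 2 rose (14 and 1 corrected), with a median of -0.15 (corrected -0.19). Polr1a, the largest polymerase I subunit, stood at 225, 240.2 and 245 CPM against 333, 355 and 327 CPM (-0.51 ± 0.0635). Nop56, a core protein of the box C/D particles that guide rRNA methylation, stood at 766, 673 and 725 CPM against 987, 1025 and 1044 CPM (-0.50 ± 0.0622). Both showed every mimic library below every control. Bop1 and Rrp12, which act in maturing the large and small subunits, fell by 0.55 and 0.49. Of 52 cytosolic ribosomal protein genes 5 rose and 3 fell (3 and 1 corrected, 8 and 1 with log2(FPKM + 1)), with a median of -0.03. Over all tested genes 11.2% rose and 13.7% fell, so no group change is read from these counts. Of 31 proteasome subunits 12 fell and 1 rose (7 and 0 corrected; 6 and 2 with log2(FPKM + 1)), with the ATPase subunit Psmc4 at -0.35 ± 0.0535. Of 51 nuclear-encoded respiratory chain genes 16 fell and 2 rose with TMM-scaled counts (9 and 1 corrected), but 7 fell and 5 rose with log2(FPKM + 1), and 8 and 5 with log2(FPKM + 0.1), among them Atp5d (-0.48, corrected -0.33), Uqcrc1 (-0.44, corrected -0.28) and Ndufv1 (-0.37, corrected -0.21), subunits of ATP synthase, complex III and complex I.

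Metabolic lists were mixed and gave individual genes rather than a group change. Pdk1, a kinase that inhibits pyruvate dehydrogenase and so the entry of glucose carbon into the citric acid cycle, stood at 37.9, 35.7 and 38.5 CPM in mimic replicates 1, 2 and 3 and at 22.5, 22.7 and 24.4 CPM in control replicates 1, 2 and 3 (0.69 ± 0.0725, adjusted p = 2.83e-06; 0.72 without replicate 2; corrected 0.62). Bnip3, a hypoxia-inducible mitophagy receptor, stood at 41.8, 37.3 and 42.7 CPM against 28.2, 26.9 and 30.0 CPM (0.52 ± 0.0845). Both were higher in all mimic libraries. Hk1, the hexokinase that starts glycolysis, stood at 325, 317 and 338 CPM against 426, 437 and 431 CPM (-0.40 ± 0.0576, corrected -0.24), and the hypoxia-inducible Ndrg1 and the phosphofructokinase Pfkp fell by 0.34 and 0.30 (corrected -0.22 and -0.30). The list of 34 glycolysis, glucose transport and hypoxia genes held 10 that fell and 4 that rose with TMM-scaled counts, 5 and 6 with log2(FPKM + 1), and 5 and 3 that passed also in the corrected fit. Angptl4, an inhibitor of lipoprotein lipase, stood at 10.0, 10.2 and 9.81 CPM against 17.4, 15.4 and 17.2 CPM (-0.74 ± 0.0767). Fasn, fatty acid synthase, stood at 64.3, 64.2 and 65.6 CPM against 95, 98.5 and 97.1 CPM (-0.58 ± 0.0584, corrected -0.36), and Hadha, of mitochondrial β-oxidation, fell by 0.36. Of 32 fatty acid genes 9 fell and 4 rose (6 and 3 corrected; 4 and 4 with log2(FPKM + 1)). In the cholesterol list of 32 genes 8 fell and 5 rose with counts (1 and 2 corrected), whereas 3 fell and 6 rose with log2(FPKM + 1). Insig1, a sterol-sensing anchor that restrains SREBP, rose, at 15.8, 17.9 and 15.5 CPM against 11.4, 12 and 10.0 CPM (0.56 ± 0.0738).

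Clock genes changed in both directions, 8 of 22 lower and 5 higher (4 and 3 corrected; 5 and 5 with log2(FPKM + 1)). Nr1d1, encoding the repressor REV-ERBα, stood at 44.9, 41.8 and 46.1 CPM against 87.2, 72.6 and 76.4 CPM, with no overlap (-0.83 ± 0.0825, adjusted p = 1.61e-06, corrected -0.67). Per1, a negative arm component, stood at 17.9, 21.3 and 18.9 CPM against 30.4, 30.2 and 27.4 CPM (-0.60 ± 0.07). Rora, the activator that competes with REV-ERB at the same elements, stood at 9.32, 9.82 and 8.45 CPM against 6.07, 5.91 and 5.93 CPM and rose by 0.62 ± 0.11. In all 3 genes the groups were apart. Nr1d2, the second REV-ERB gene, rose by 0.44 (corrected 0.25).

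Signalling lists showed few group-wide changes. In the TGF-β, activin and BMP list 9 of 34 fell and 5 rose with TMM-scaled counts (3 and 3 corrected), and 4 fell and 8 rose with log2(FPKM + 1). Ltbp1, which stores latent TGF-β in the matrix, stood at 77.4, 74.1 and 76.3 CPM against 112, 112 and 107 CPM (-0.54 ± 0.056). Grem1, a secreted BMP antagonist, stood at 11.5, 11.5 and 12.8 CPM against 7.94, 7.03 and 7.57 CPM (0.67 ± 0.111), and Skil, an intracellular repressor of SMADs, at 60.1, 69 and 64.2 CPM against 47.2, 47.4 and 46.4 CPM (0.45 ± 0.0756). The groups did not overlap for these genes. Of 30 NF-κB-linked genes 5 fell and 2 rose (2 and 0 corrected). Lcn2, a secreted iron-siderophore binder, had the largest decrease of the genes named by size, at 2.65, 3.15 and 2.55 CPM in mimic replicates 1, 2 and 3 and 8.46, 7.88 and 7.76 CPM in control replicates 1, 2 and 3 (-1.53 ± 0.192, adjusted p = 1.5e-05; -1.63 without replicate 2). Of 36 interferon-stimulated genes 1 rose and 2 fell (0 and 2 corrected), and of 16 MHC class I and peptide-loading genes 0 passed both ways, although 3 were called higher with all libraries. Of 25 calcium-handling genes 6 rose and 4 fell (5 and 4 corrected), among them the plasma membrane pump Atp2b4 (-0.65 ± 0.115) and the junctophilin gene Jph1 (0.39 ± 0.0593). Among 14 cardiomyocyte markers measured, 1 rose and 3 fell (1 and 1 corrected): Tnnt2 stood at 23.6, 21.5 and 24.2 CPM against 15.7, 17.5 and 15.6 CPM and rose by 0.51 ± 0.104, and Tnnc1, slow and cardiac troponin C, fell by 0.40. Nppb, the B-type natriuretic peptide gene, was low at 1.77, 1.57 and 1.82 CPM against 2.3, 1.84 and 2.44 CPM (-0.35 ± 0.171, adjusted p = 0.123), Myh7 was near the floor at 0.115 to 0.309 CPM, and Nppa and Myh6 did not pass the filter. Txnip, a glucose-induced inhibitor of thioredoxin, stood at 0.542, 2.07 and 0.607 CPM against 0.633, 0.763 and 0.958 CPM, with log2 fold changes of 0.45 with all libraries and -0.44 without replicate 2, neither past the test.

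The remaining lists are given by their counts. Of 35 autophagy and lysosome genes 12 fell and 4 rose (6 and 1 corrected; 7 and 4 with log2(FPKM + 1)), with Atg9b, which encodes a lipid scramblase of the autophagosome, at 1.05, 0.700 and 0.723 CPM against 1.96, 2.16 and 1.55 CPM (-1.19 ± 0.163). Of 35 splicing factor genes 8 rose and 1 fell, and 1 and 1 did so also in the corrected fit. That fit taken alone called 6 higher and 7 lower. Its median was -0.04 against 0.08 uncorrected with all libraries, and -0.003 against 0.09 without replicate 2. The member that fell was Ptbp1, the polypyrimidine tract-binding protein, at 149, 147 and 154 CPM against 217, 201 and 212 CPM, with every mimic library below every control (-0.49 ± 0.0409, corrected -0.35). Of 27 AP-1 and EGR immediate early genes 7 fell and 0 rose (2 and 0 corrected, 5 and 0 with log2(FPKM + 1)). With all libraries their median turned from -0.11 to 0.04 in the corrected fit. Without replicate 2 it stayed below 0, going from -0.22 to -0.09. The corrected fit taken alone called 3 lower and 2 higher, so no direction is given. Of 30 metalloproteinases, serpins and inhibitors 4 rose and 4 fell (2 and 2 corrected); with log2(FPKM + 1) 4 rose and 1 fell. Of 18 EGF receptor family genes 2 fell and 1 rose (2 and 0 corrected), and of 20 imprinted genes 2 fell and 0 rose (1 and 0 corrected); with log2(FPKM + 0.1) these counts were 0 and 2 and 1 and 2, so no direction is given for either list.

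**Figure D4:**
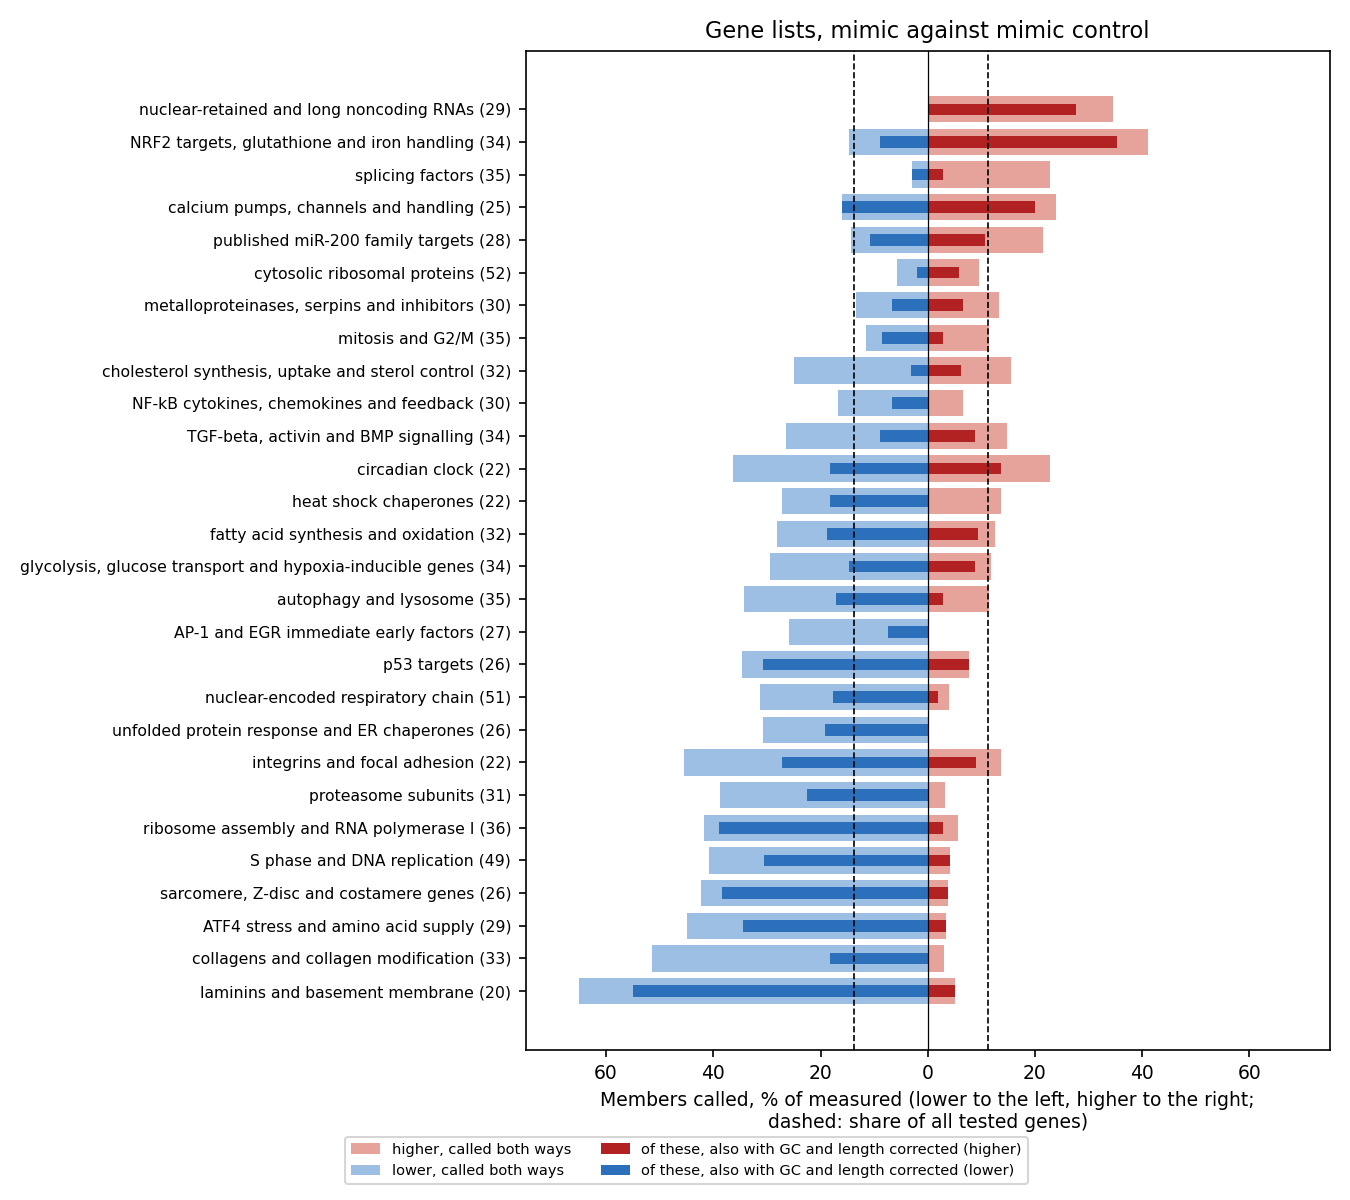
Share of measured members (number in brackets) of 28 gene lists that fell (left) or rose (right) both with and without mimic replicate 2; dark bars are the share that also passed with GC content and length corrected, and dashed lines the shares over all tested genes (13.7% and 11.2%). Basement membrane genes reach furthest left (13 of 20) and NRF2 genes furthest right (14 of 34).

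In a list of nuclear-retained and other long noncoding RNAs, the members that changed rose. Of 29 measured 10 rose and 0 fell (8 and 0 corrected), with a median of 0.31. Over all tested genes annotated as long noncoding, 51 rose and 14 fell (28 and 9 corrected). The number of such genes tested is not given here. These counts can therefore not be set against the 11.2% that rose and 13.7% that fell over all tested genes. Xist, the RNA that coats the inactive X chromosome, stood at 247, 251 and 263 CPM in mimic replicates 1, 2 and 3 and at 121, 117 and 117 CPM in control replicates 1, 2 and 3, a log2 fold change of 1.10 ± 0.146 (adjusted p = 2.62e-05; 1.11 without replicate 2; corrected 0.95). Malat1, of nuclear speckles, stood at 392, 406 and 393 CPM against 211, 207 and 211 CPM (0.92 ± 0.186). Neat1, the scaffold of paraspeckles, stood at 36.3, 222 and 37.1 CPM against 18.4, 21.3 and 20.9 CPM. Its log2 fold change was 2.29 with all libraries and 0.86 ± 0.102 without replicate 2, which alone held 222 CPM; with log2(FPKM + 1) and no filter its call with all libraries was lost (adjusted p = 0.0567). For all 3 RNAs each mimic library was above each control. Together Xist, Malat1 and Neat1 made up 0.0644 to 0.0865% of the reads in the mimic libraries and 0.0313 to 0.0321% in the controls. The mitochondrial 16S ribosomal RNA mt-Rnr2 stood at 269, 256 and 252 CPM against 158, 164 and 145 CPM (0.73 ± 0.105, corrected 0.40), while 2 of 14 mitochondrial genome transcripts rose in all and 0 fell (1 and 0 corrected; 3 and 0 with log2(FPKM + 1)). The corrected fit taken alone called 1 of the 14 higher and 2 lower, and their median turned from 0.11 to -0.17, so no direction is given. The nuclear 18S ribosomal RNA Rn18s took 0.969 to 1.08% of reads in the mimic libraries and 0.874 to 1.04% in the controls. The part of these shares in the noncoding RNA result was not tested. Other genes among the 15 largest increases were Spaca6, a sperm-egg fusion gene, at 7.89, 13 and 9.49 CPM against 4.52, 6.1 and 4.23 CPM (1.04; 0.82 without replicate 2), the centriolar Lrrcc1 (0.75, corrected 0.47), Mfap3l (0.70), the glucosamine-6-phosphate deaminase Gnpda2 (0.68), Nbeal1 (0.69, with the call lost with log2(FPKM + 1), adjusted p = 0.0675), Bmt2 (0.63, corrected 0.34) and the cohesin acetyltransferase Esco1 (0.66, corrected 0.40). Srp54a (1.23) and, among decreases, the pseudogene Rps6-ps4 (-0.68; -0.39 without control replicate 2) share sequence with near-identical copies, so their counts are uncertain. Hivep3, a zinc finger gene, fell by 0.66.

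Genes whose 3′ UTR holds a seed match to the mimic were then examined. The counted sites were the 8mer CAGTGTTA, the 7mer-m8 CAGTGTT and the 7mer-A1 AGTGTTA, searched on the transcript strand of the canonical GENCODE 3′ UTR, each gene entering its strongest class only. A match is a description of letters and not evidence of a site in use. Of 12826 tested genes with a 3′ UTR, 681 (5.31%) held an 8mer, 2174 (16.9%) a 7mer-m8 and 683 (5.33%) a 7mer-A1, and 9288 (72.4%) held none. Genes with an 8mer had a median log2 fold change of 0.07 (0.08 without replicate 2) and those with none of -0.03. Of the 8mer genes 145 rose (21.3%) and 58 fell (8.52%); of genes without a site 9.67% rose and 17.2% fell. The difference of medians in mimic replicates 1, 2 and 3 was 0.0868, 0.0967 and 0.106 on the log2 scale. In each mimic library the 8mer genes thus had the higher median. Genes with an 8mer also had a lower GC content (median 46.9% against 51.6%) and longer 3′ UTRs (2969 against 969 bases), and in the corrected fit the medians were 0.03 and -0.00, with 9.54% that rose and 5.73% that fell against 4.65% and 9.08%. In 3 equal parts of genes by 3′ UTR length the 8mer and no-site medians were 0.00 and -0.07, 0.06 and -0.03, and 0.09 and 0.03. 8mer sites for other microRNAs gave higher medians before the correction. The 266 genes with an 8mer for miR-200a-5p (2.07% of 3′ UTRs) had a median of 0.14, with 24.1% that rose and 8.27% that fell. The 526 with an 8mer for miR-200b-3p (4.1%) had a median of 0.12, with 23.8% and 9.13%. Their median GC content was 44.8% and 45.9%. Their corrected medians were 0.02 and 0.03, against 0.03 for the miR-200a-3p 8mer genes. Of 39 genes with 2 or more miR-200a-3p 8mers, 11 rose and 3 fell.

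**Figure D5:**
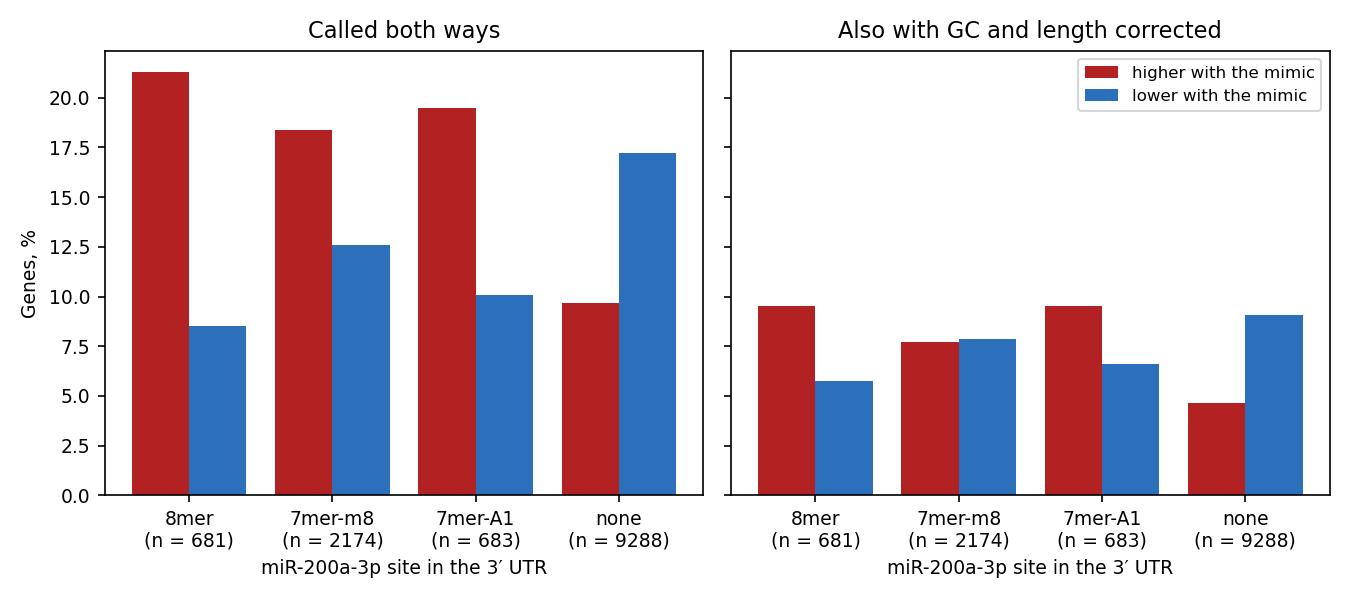
Share of genes that rose (red) or fell (blue) with the mimic by the strongest miR-200a-3p seed match in the 3′ UTR, both with and without mimic replicate 2 (left panel) and also with GC content and length corrected (right panel). Among 8mer genes 21.3% rose and 8.52% fell (9.54% and 5.73% corrected), and among genes with no match 9.67% rose and 17.2% fell.

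Single genes with an 8mer moved both ways, and their sites are shown to let the matches be seen. Each line gives 14 bases of 3′ UTR and, in capitals, the 8mer; coordinates are those of the 8mer in GRCm39, and all lie in the 3′ UTR of the gene's last coding exon.
Slc7a11, chr3:50325686-50325693, minus strand, exon 12 of 12: gccccatttatatgCAGTGTTA
Klhl24, chr16:19945150-19945157, plus strand, exon 8 of 8, the first of 4 identical copies: gatctgtgtaacgaCAGTGTTA
Calcrl, chr2:84161234-84161241, minus strand, exon 16 of 16: ggtttaggagtagtCAGTGTTA
Tbl3, chr17:24917579-24917586, minus strand, exon 22 of 22: ctggagtatagtccCAGTGTTA
Epha2, chr4:141056560-141056567, plus strand, exon 17 of 17: acaaatgtcgctgtCAGTGTTA
Mcm5, chr8:75855326-75855333, plus strand, exon 17 of 17: ctggctggcaggcaCAGTGTTA
Snrnp200, chr2:127082996-127083003, plus strand, exon 45 of 45: agagtagcatggtaCAGTGTTA

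Of these, Slc7a11 rose as described. Klhl24, a ubiquitin ligase adaptor, stood at 10.5, 13.2 and 12.5 CPM in mimic replicates 1, 2 and 3 and at 6.9, 8.62 and 7.7 CPM in control replicates 1, 2 and 3 (0.64 ± 0.118, corrected 0.44). Its 4 copies lie 45 bases apart, from chr16:19945150-19945157 to chr16:19945285-19945292, each preceded by the same 14 bases. Calcrl, the receptor for adrenomedullin and CGRP, stood at 6.04, 6.36 and 5.9 CPM against 3.8, 3.94 and 4.17 CPM (0.62 ± 0.126, corrected 0.31). All mimic libraries lay above the controls for both. Ogfrl1 and Lysmd3 also held an 8mer and rose by 0.65 and 0.57, the latter without passing both ways in the corrected fit. Tbl3, a small-subunit rRNA processing factor, stood at 64, 58.5 and 63 CPM against 89.9, 95.3 and 90.9 CPM (-0.57 ± 0.057, adjusted p = 1.61e-06, corrected -0.43). Epha2, an ephrin receptor kinase, stood at 207, 189.5 and 205 CPM against 298, 300.4 and 292 CPM (-0.57 ± 0.0529, corrected -0.40). Snrnp200, the helicase that unwinds U4/U6 in the spliceosome, stood at 277, 301 and 301 CPM against 391, 389 and 397 CPM (-0.42 ± 0.053, corrected -0.43). In these 3 genes and in Mcm5, given above, each mimic library was below each control. Cyp26b1, a retinoic acid hydroxylase, and Ctu2, of tRNA thiolation, held an 8mer and fell by 0.49 and 0.40 (corrected -0.36 and -0.23).

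Known targets of the miR-200 family did not fall together. Of 28 measured, 6 rose and 4 fell (3 and 3 corrected), with a median of 0.01. With log2(FPKM + 1) 8 rose and 1 fell, with a median of 0.04. The list covers the whole family, including microRNAs whose seed differs from that of the mimic. Bmi1, Elmo2, Flt1, Mapk14, Msn, Rhoa, Sec23a and Wasf3 held no miR-200a-3p match in the canonical 3′ UTR, nor did Keap1 and Zeb2. Flt1, Msn, Sec23a and Wasf3 held an 8mer for miR-200b-3p. The counts are therefore not those of miR-200a-3p targets alone. Zeb1, with a 7mer-m8 match, stood at 39.3, 41.4 and 46.4 CPM in mimic replicates 1, 2 and 3 and at 44.6, 42 and 45.1 CPM in control replicates 1, 2 and 3, with overlapping groups (-0.05 ± 0.0648, adjusted p = 0.593). Zeb2, with no match in the canonical 3′ UTR and an 8mer in the longest annotated one, stood at 349, 381 and 354 CPM against 241, 247 and 236 CPM. It was higher in every mimic library (0.58 ± 0.0656, adjusted p = 5.61e-06; 0.54 without replicate 2; corrected 0.41). Ctnnb1, encoding β-catenin and holding a 7mer-A1, stood at 216, 209 and 214 CPM against 219.6, 207 and 213 CPM (-0.00 ± 0.0535, adjusted p = 0.982). Sirt1, a deacetylase gene with a 7mer-m8, stood at 12, 11.9 and 12.1 CPM against 8.86, 7.98 and 9.4 CPM and rose (0.45 ± 0.0824, corrected 0.29), and Qk, an RNA-binding protein gene with an 8mer, rose by 0.23 (corrected 0.14). Egfr, with a 7mer-m8, stood at 5.53, 6.94 and 6.77 CPM against 8.17, 7.57 and 7.97 CPM (-0.30 ± 0.0891, adjusted p = 0.0132), a call lost without mimic replicate 1 (adjusted p = 0.0789). Keap1, given above, held no match. Of 14 epithelial-mesenchymal transcription factors and cadherins 2 rose and 2 fell (1 and 1 corrected, 1 and 2 with log2(FPKM + 1)). Of 17 microRNA-processing genes 1 rose and 3 fell (0 and 2 corrected), including Xpo5, the exporter of precursor microRNAs (-0.33 ± 0.0513), and Zswim8, which directs Argonaute degradation (-0.38 ± 0.0519, corrected -0.20). The level of the mature microRNA itself was not measured in these libraries.

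The mimic comparison was set against the inhibitor comparison, which has control libraries of its own. For 1431 genes (9.49%) the mimic effect and the inhibitor effect differed both with and without mimic replicate 2, the mimic effect being higher for 511 (3.39%) and lower for 920 (6.1%). Of these 35.7% were higher; with upper quartile scaling 676 were higher and 736 lower (47.9% higher). These counts rested on few libraries: without mimic replicate 3 they were 140 and 401, without mimic replicate 1 246 and 456, without inhibitor control replicate 3 251 and 566, and without mimic control replicate 1 280 and 603. The number higher was also lower without mimic control replicate 3 (300.0), inhibitor control replicate 2 (301), inhibitor replicate 3 (303), 1 (314) or 2 (316). Among the 30 genes named by size, 28 differed; they were ranked by the mimic effect, which is one term of this difference, so nothing is read from that count. Slc7a11 showed a mean of 71.6 CPM in the inhibitor libraries and 72 CPM in their controls, so that the mimic effect exceeded the inhibitor effect by 0.69 on the log2 scale (adjusted p = 0.000153). Flnc showed 924 and 992 CPM (difference of effects -0.71, adjusted p = 8.37e-05), and Nrap 7.3 and 6.73 CPM (-0.91). Fat1 showed 46.4 and 48 CPM (-0.65), Lama3 31.3 and 33 CPM (-0.73) and Lamb3 30.8 and 33.1 CPM (-0.70). In these 6 genes the inhibitor group stood close to its own control. The control levels themselves differed between the 2 transfected pairs, Slc7a11 standing at a mean of 22.3 CPM in the mimic controls and at 72 CPM in the inhibitor controls, so levels were compared within each pair only.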

How the data were processed

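Stranded mRNA libraries from cells labelled HL-1 were sequenced as paired reads of 150 nt, per the labels' protocols. Per the same protocols, the authors trimmed reads with FASTX-Toolkit 0.0.13, aligned them to GRCm39 with HISAT2 allowing 4 mismatches, and counted uniquely mapped reads. The authors deposited raw read counts per gene and FPKM values (fragments divided by transcript length and by library depth). The submitters' processing notes also name DESeq2. The sources used here do not give the counting program, annotation release or strand setting, so reads of overlapping antisense genes may be shared, and reads from near-identical copies were dropped.

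The read counts went into edgeR 4.0.16 (R 4.3.3). After filterByExpr on the groups (count of 10 or more, total of 15 or more) and TMM scaling, a quasi-likelihood fit with a term for each group used all 18 libraries (12 residual degrees of freedom) and was repeated without mimic replicate 2 (11). The 6 groups of 3 libraries share 1 estimate of the spread. P-values were adjusted by Benjamini-Hochberg over 15074 genes, with 0.05 as the threshold for a call. The corrected fit removes a smooth trend of each library on transcript GC content and length; counting genes that passed in both kinds of fit was chosen after seeing the data. Alternatives were DESeq2 1.42.0, other scalings and filters, limma 3.58.1 on log2(FPKM + 1) and log2(FPKM + 0.1), a replicate term, the compared groups alone, and leaving out each library. Tests were tried on simulated counts first. GC content, length and 3′ UTRs came from the canonical transcripts of GENCODE M39 (GRCm39), which matched 15028 of the tested genes (99.7%).

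The comparison and the 43 gene lists were chosen with earlier results of these data known, so lists are described by counts and medians with no test of their own. Genes were named by rule: up to 15 in each direction called both ways, at 5 CPM or more in the higher group, with groups that did not overlap, no predicted gene models, ranked by the smaller log2 fold change of the 2 fits; a fixed set of miR-200 and cardiac genes; up to 6 members of each list; up to 6 in each direction with an 8mer; and genes whose call was lost or turned without mimic replicate 2. Other genes the text names, mostly further list members that passed, were chosen after their values were seen. Some list members that the rule selects are not reported here.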

Additional observations from a re-analysis of the deposited data

Results flagged for a closer look

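For 28 of the 30 genes named by size, the mimic effect differed from the inhibitor effect in a test of that difference (edgeR's quasi-likelihood test, Benjamini-Hochberg adjusted p under 0.05, both with and without mimic replicate 2). The values are the mimic log2 fold change minus the inhibitor log2 fold change, each against its own control, first with all libraries and then without mimic replicate 2. The 30 genes were ranked by the mimic effect, which is one term of the difference, so their choice favours a pass and nothing is read from the count. The mimic effect was the higher one for Neat1 (2.35 and 0.93), Malat1 (1.24 and 1.22), Xist (1.14 and 1.15), Spaca6 (0.98 and 0.76), Pdk1 (0.71 and 0.74), Lrrcc1 (0.71 and 0.66), Nbeal1 (0.70 and 0.65), Slc7a11 (0.69 and 0.71), Gnpda2 (0.63 and 0.63), Mfap3l (0.61 and 0.61), mt-Rnr2 (0.61 and 0.62), Bmt2 (0.60 and 0.61), Esco1 (0.59 and 0.55) and Grem1 (0.49 and 0.52). It was the lower one for Lcn2 (-1.36 and -1.46), Nrap (-0.91 and -0.95), Jup (-0.90 and -0.92), Adgrg1 (-0.79 and -0.83), Lama3 (-0.73 and -0.79), Tinagl1 (-0.72 and -0.80), Nr1d1 (-0.72 and -0.68), Flnc (-0.71 and -0.69), Lamb3 (-0.70 and -0.65), Angptl4 (-0.67 and -0.68), Fat1 (-0.65 and -0.68), Eps8l2 (-0.63 and -0.60), Hivep3 (-0.58 and -0.62) and Hspg2 (-0.57 and -0.56). Groups of 3 libraries are too small for a test of single outlying libraries.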

How the results depend on the processing

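The counts of genes that rose (1688) and fell (2066) both with and without mimic replicate 2 stayed within 1.5 times under DESeq2, DESeq2 size factors, upper quartile scaling, no filter on low counts and the compared groups alone. With GC content and length corrected 1112 rose, and with the replicate block added 1005 rose and 1348 fell. With limma, 1303 fell on log2(FPKM + 0.1), 1335 on log2(FPKM + 1) and 1075 on the latter with no filter. Of genes called with all libraries, those settings gave 1766, 1785 and 1498 lower. Without replicate 2, the corrected fit with the replicate block gave 1133 higher and 1414 lower, and the 3 FPKM settings gave 1386, 1414 and 1141 lower. The cause of these shifts was not tested. On log2(FPKM + 1), where the pseudocount shrinks low genes, 17 of the 30 genes named by size had changes over 1.5 times smaller and Nbeal1 lost its call; in the corrected fit 6 moved that far and kept their calls (Bmt2, Esco1, Hspg2, Lrrcc1, Nbeal1 and mt-Rnr2). With the replicate block added to it, Bmt2 lost its call (adjusted p = 0.0545). The 8mer minus no-site median (0.10) was 0.0301 corrected, 0.0291 corrected with the replicate block, 0.084 on log2(FPKM + 0.1) and 0.0559 on log2(FPKM + 1), with or without the filter.

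Leaving out 1 library at a time gave 708 to 1224 genes that rose and 1181 to 1903 that fell; the lowest counts, without mimic replicate 3 or 1, left a single mimic library in the fit without replicate 2, assumed to vary like the other groups. With all other libraries the ranges were 1711 to 2102 higher and 2158 to 2597 lower, without replicate 2 754 to 1378 and 1222 to 1993, for the 8mer difference 0.0998 to 0.118, and for mimic minus inhibitor 140 to 579 higher and 401 to 1029 lower. Passing both ways has no separate value without mimic replicate 2.

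Same-numbered mimic and control libraries did not deviate together (correlations of deviations -0.003, 0.005 and 0.020), so the numbers were not taken as pairs; with the replicate block 2228 genes were higher and 2655 lower with all libraries, 1578 and 2013 both ways, and 437 and 849 for mimic minus inhibitor.

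Leaving out 1 library at a time, the log2 fold change of these genes ran from below 0 without mimic replicate 2 to its highest value without mimic replicate 1 or 3: Gmfg (-1.45 to 4.38), Il10ra (-1.22 to 4.93), Cd37 (-1.04 to 3.36), Cyba (-0.90 to 4.42), Ctsc (-0.73 to 4.18), Cd5l (-0.68 to 3.51), Lilr4b (-0.58 to 4.59), Ccl6 (-0.50 to 4.61), Thbs1 (-0.50 to 2.61), Rgs1 (-0.46 to 5.15), Cybb (-0.45 to 4.64), Arg1 (-0.35 to 4.76), Lyz2 (-0.26 to 4.61), Pla2g7 (-0.22 to 4.69), Saa3 (-0.14 to 4.97), H2-D1 (-0.11 to 1.84) and Itgam (-0.0442 to 4.93). That of the chaperone gene Chordc1 turned to -0.0928 in the corrected fit and to -0.0921 with the replicate block added. Depth limits genes with few reads: a 3-read floor of 0.0791 to 0.0863 CPM.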
